A study of Mus musculus with 4 samples.

Results

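The cytosolic ribosomal protein genes were taken as the probe sets whose only gene symbol in the platform annotation is Rpl or Rps followed by a number and at most the letters a, x or l, together with Rplp0, Rplp1, Rplp2 and Rpsa. Pseudogene symbols ending in -ps and the Rps6k kinases were left out. The rule gave 104 of 41345 probe sets, which stand for 64 of 22180 genes, 40 with an Rpl and 24 with an Rps symbol. Mouse embryonic stem cell RNA (total RNA) was hybridised to 4 GeneAtlas arrays of strip 2, with 1 array per group. The groups were Prdm14 knockout cells that expressed mouse PRDM14, Prdm14 knockout cells that expressed sea urchin PRDM14, Prdm14 knockout cells that expressed both sea urchin PRDM14 and sea urchin CBFA2T, and Prdm14 knockout cells with an empty vector. All 4 thus lacked the endogenous Prdm14 gene, and all were grown in 2i medium (inhibitors of MEK and GSK3) with LIF on STO cells, a mouse fibroblast line used as a feeder layer. Whether each group was 1 clone or a pool, and which promoter drove the transgenes, was not given in the sources used here. One more strip named in the series' design text was not used here. With 1 array per group no replicate error exists, so every difference below compares arrays, and differences are described by size without tests.

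Each cytosolic ribosome joins a small subunit, which decodes the messenger RNA, to a large subunit, which forms the peptide bond and holds the exit tunnel. Nearly every ribosomal protein is present once per particle, so their genes are usually expressed in step with each other and with ribosomal RNA. Their messenger RNAs typically begin with a C followed by a pyrimidine tract at the cap, the TOP motif, through which mTOR and LARP1 control translation. PRDM14 is a DNA-binding protein of pluripotent and germ cells, and CBFA2T proteins are its corepressor partners. Ribosomal protein genes also leave many processed pseudogenes in mammalian genomes, and a probe set can read such near-identical copies, so each value below is uncertain to that extent.

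The promoters of 7 members are printed because the results turn on their genes or, for Rps6, because it is the textbook target of the same pathway. The sequences are from RefSeq (GRCm38.p6), in which 49 of the 64 genes matched, with 58 start sites in all. Each line gives 30 bases before and 30 bases from the annotated start on the gene's strand. Capitals mark the longest run that begins with C and goes on in pyrimidines, where it has 5 or more bases. Of the annotated starts of Rpl19, the one whose printed window held the longest such run was taken.
Rpl19 (chr11:98026894-98026953, plus strand, 1 of 2 annotated starts): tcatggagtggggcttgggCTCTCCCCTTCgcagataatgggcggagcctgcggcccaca
Rpl38 (chr11:114668550-114668609, plus strand): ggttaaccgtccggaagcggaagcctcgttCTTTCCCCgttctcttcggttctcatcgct
Rps26 (chr10:128626477-128626536, minus strand): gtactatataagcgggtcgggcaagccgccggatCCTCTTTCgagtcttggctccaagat
Rps23 (chr13:90923092-90923151, plus strand): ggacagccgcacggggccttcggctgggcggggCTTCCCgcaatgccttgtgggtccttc
Rpl9 (chr5:65391402-65391461, minus strand): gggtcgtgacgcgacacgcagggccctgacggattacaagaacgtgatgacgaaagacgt
Rplp0 (chr5:115559437-115559496, plus strand): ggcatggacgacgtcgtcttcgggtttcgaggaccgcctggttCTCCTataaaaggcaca
Rps6 (chr4:86857338-86857397, minus strand): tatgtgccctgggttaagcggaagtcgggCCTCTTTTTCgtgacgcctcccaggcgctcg

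The Rpl38 run began at the annotated first base and the Rps6 run 1 base before it. The Rpl19 run, of 11 bases, began 11 bases before the annotated start and so lay wholly before the transcript. The Rps23 run began at base 4 and the Rps26 run at base 5 of the transcript, the Rplp0 run at base 14, and the printed Rpl9 window held no run of that length. Over the windows from 250 bases before to 50 after each start, 11 of the 58 (19.0%) had a C followed by at least 4 pyrimidines at the annotated start, on the gene's strand, against 2.5% of 32851 windows of all genes. A C followed by at least 7 pyrimidines between 5 bases before and 50 after the start, which can overlap the first motif, was in 34 windows (58.6%) against 14.7% of all. The letters CCGGAAG, the core that ETS family factors such as GABP bind, were on either strand of 22 windows (37.9%) against 8.9%. AAGATGGC, the core of the YY1 motif, was on either strand in 2 windows (3.4%) against 2.7%, and TATAAA in the 50 bases before the start, on the gene's strand, was in 0 against 2.6%. These matches describe letters in a window.

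A gene with several probe sets was given the values of the one with the highest mean over the 4 arrays. A gene was kept where its highest array reached 4.84, the median log2 value of all probe sets with 1 gene symbol. Of the 64 ribosomal protein genes, 52 passed, 30 with Rpl and 22 with Rps symbols, beside 12042 of all 22180 genes. A gene counted as higher or lower on one array than on another when the log2 difference reached 0.263 in size, which is 1.2-fold. The 12 below the filter were Rpl10l, Rpl11, Rpl17, Rpl27a, Rpl30, Rpl32l, Rpl37, Rpl37a, Rpl39, Rplp2, Rps16 and Rps20, with mean log2 values between 3.04 and 4.29. RMA values carry no detection call, so a low value does not show that a transcript was missing. For 6 of the 12 (Rpl27a, Rpl30, Rpl37a, Rpl39, Rplp2 and Rps16), a probe set that the platform also ties to other symbols passed the filter. The rule also leaves out some canonical ribosomal protein genes: 12, among them Rpl10, Rpl12, Rpl13a and Rps2, are listed only in probe sets with several symbols, and Fau and Rps3a1 have probe sets but other symbols. In the other direction, 7 members are not canonical genes (Rpl3l, Rpl10l, Rpl39l, Rpl32l, Rpl6l, Rps27l and Rps4l).

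The arrays as a whole resembled each other. Across all probe sets their Pearson correlations lay between 0.986 and 0.989 and their medians between 4.54 and 4.55. The Prdm14 probe set stood at 5.57 with mouse PRDM14, 5.77 with sea urchin PRDM14, 5.53 with CBFA2T added and 5.71 with the empty vector, so it did not separate the group with mouse PRDM14 from the rest. Where its probes lie relative to the deletion and the transgene was not given in the sources used here. All 8 pluripotency markers passed the filter, among them Nanog, Sox2 and Pou5f1. Their summed linear level was 1303 with mouse PRDM14, 1123 with sea urchin PRDM14, 1349 with CBFA2T added and 1279 with the empty vector. Nanog, the brightest of the 8, weighs most in this sum, at log2 9.28 with CBFA2T added and 9.07 with the empty vector. Of the 8, 5 lay above the empty vector with mouse PRDM14, 1 with its sea urchin ortholog and 2 once CBFA2T was added. The same shares of all genes were 48.4%, 51.6% and 51.6%. The median log2 differences of the 8 were 0.09, -0.13 and -0.03 in that order. Of 10 fibroblast markers, 6 passed the filter, and S100a4, Lum, Dcn and Postn lay below it. The summed linear level of the 6 was 552 with mouse PRDM14, 510 with sea urchin PRDM14, 437 with CBFA2T added and 505 with the empty vector. Fn1, which encodes fibronectin, had log2 values of 8.09 with mouse PRDM14, 7.86 with sea urchin PRDM14, 7.30 with CBFA2T added and 7.79 with the empty vector. Fn1 was the brightest of the 6 and weighs most in their sum. Col1a1 was instead highest on the array with CBFA2T, at 5.99 beside 5.87 with the empty vector. On that array, 2 of the 6 lay above the empty vector, beside 51.6% of all genes, with a median log2 difference of -0.07. Against the array without CBFA2T, 2 of the 6 lay above 0, beside 49.9% of all genes, with a median of -0.08. The part of feeder RNA in the results below was not tested, and in RNA from whole cultures fewer cells of a type and less RNA per cell cannot be told apart.

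The members differed little between arrays. The range of a member over the 4 arrays had a median of 0.21 on the log2 scale, and that of all genes past the filter had a median of 0.19. The range was under 0.263 in 34 of the 52 members and under 0.1 in 5. It was largest for Rpl23a, at 0.74, and smallest in the set at 0.05. No member reached 2-fold in any of the 6 differences taken, while 45 of the 12042 genes (0.374%) did in at least 1. The lowest value of a member was on the mouse PRDM14 array for 20 of the 52 (27.9% of all genes), on the sea urchin PRDM14 array for 12 (22.4%), on that with CBFA2T added for 14 (24.3%) and on the empty vector array for 6 (25.3%). The highest value was with mouse PRDM14 for 9 (23.2% of all genes), with sea urchin PRDM14 for 16 (25.1%), with CBFA2T added for 11 (27.3%) and with the empty vector for 16 (24.4%).

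**Figure D1:**
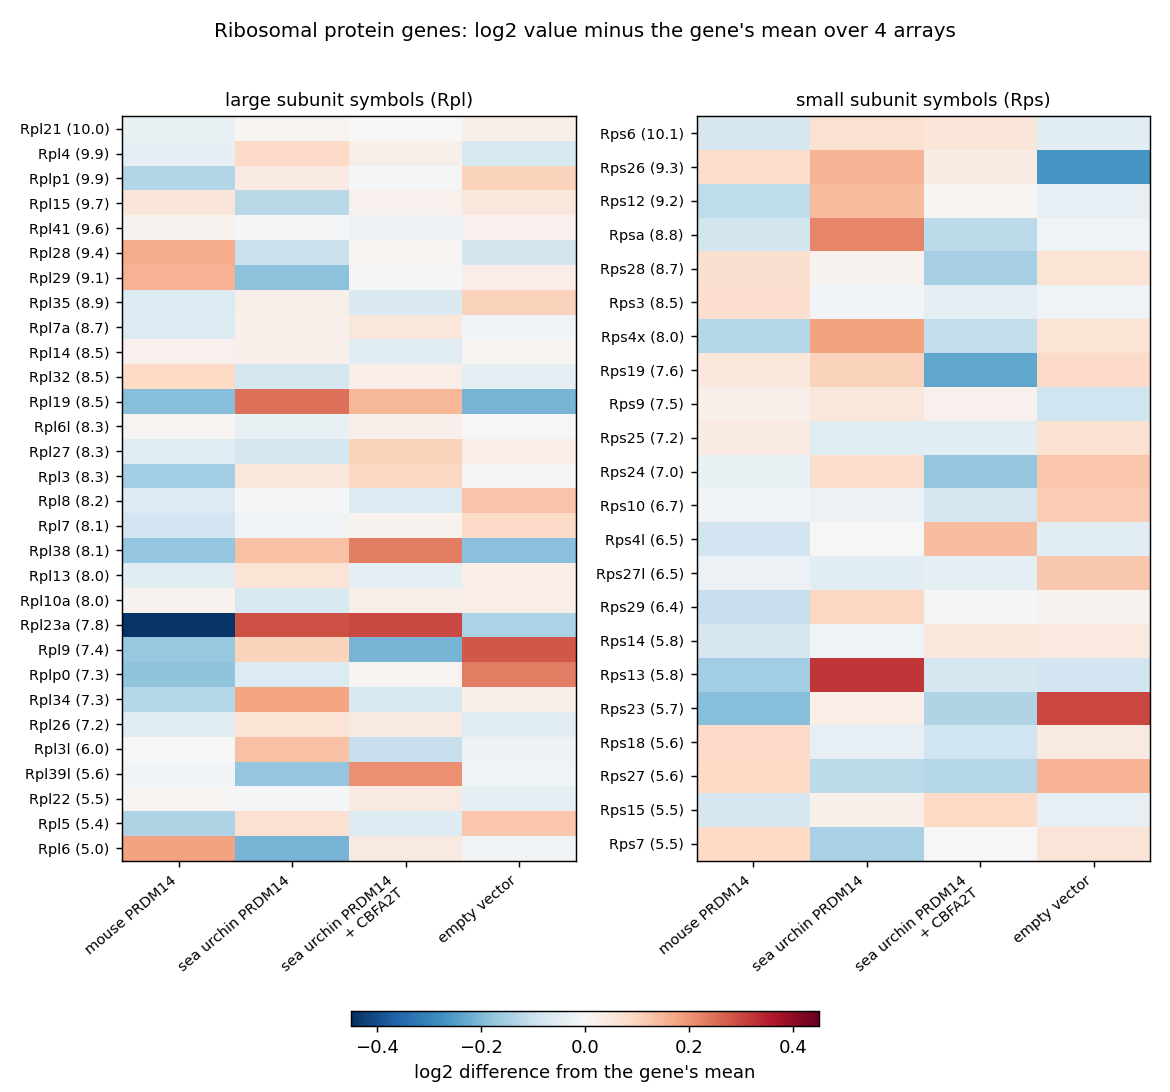
Log2 difference of each of the 52 ribosomal protein genes past the filter from the gene's own mean over the 4 arrays, with genes down the page and arrays across it, mouse PRDM14 first and the empty vector last, red above and blue below the mean, and the mean log2 value in brackets. Most cells are pale, and Rpl23a, with the largest range (0.74), stands out as low with mouse PRDM14 and high on both sea urchin arrays.

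The first question was whether mouse PRDM14 moved the ribosomal protein genes of cells that lack it. Of the 52 members, 19 (36.5%) lay above the empty vector array, where 48.4% of all genes did, and the median difference was -0.04 beside -0.01 for all genes. One member, Rps26 (1.92%), was at least 1.2-fold higher, beside 4.07% of all genes. At least 1.2-fold lower were 4 (7.69%), Rps23, Rpl9, Rplp0 and Rpl23a, beside 4.28% of all genes. These shares rest on 1 and 4 genes. Large subunit genes had a median of -0.01 with 13 of 30 above 0, and small subunit genes had a median of -0.05 with 6 of 22 above 0.

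The second question was whether the sea urchin ortholog acted on these genes in the mouse cell. With sea urchin PRDM14 alone, 24 of 52 members (46.2%) lay above the empty vector, beside 51.6% of all genes, and the median difference was -0.02 beside 0.01 for all genes. At least 1.2-fold higher were 5 (9.62%), Rpl19, Rpl23a, Rps26, Rps13 and Rpl38, beside 5.02% of all genes, and at least 1.2-fold lower were 3 (5.77%), Rplp0, Rps27 and Rps23, beside 3.4% of all genes. The large subunit median was -0.03 with 12 of 30 above 0, and the small subunit median was 0.01 with 12 of 22 above 0.

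With sea urchin CBFA2T added, 22 of 52 members (42.3%) lay above the empty vector, again beside 51.6% of all genes, and the median was -0.03 beside 0.01. At least 1.2-fold higher were 4 (7.69%), Rpl23a, Rpl38, Rpl19 and Rps26, beside 6.26% of all genes. At least 1.2-fold lower were 5 (9.62%), Rpl9, Rps23, Rps19, Rps24 and Rps27, beside 4.45%. The small subunit genes had a median of -0.08 with 8 of 22 above 0, and the large subunit genes a median of -0.01 with 14 of 30 above 0. These 3 comparisons share the empty vector array, so any departure of that array enters all of them.

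The array with CBFA2T was also compared with the one without it, which asks what the cofactor added. Of the 52 members, 22 (42.3%) lay above 0, beside 49.9% of all genes, and the median was -0.02 beside -0.00. At least 1.2-fold higher was 1 (1.92%), Rpl39l, beside 3.78% of all genes, and 5 (9.62%), Rps13, Rpsa, Rps19, Rpl9 and Rps4x, were at least 1.2-fold lower, beside 3.84% of all genes. Of the 5, 4 belong to the small subunit, whose genes had 6 of 22 above 0 and a median of -0.05, against 16 of 30 above 0 and a median of 0.02 for the large subunit.

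Both sea urchin arrays were further set against the mouse PRDM14 array, which they share. With sea urchin PRDM14, 33 of 52 members (63.5%) lay above the mouse PRDM14 array, beside 53.4% of all genes, with a median of 0.07 beside 0.01 for all genes. At least 1.2-fold higher were 8 (15.4%), Rpl23a, Rps13, Rpl19, Rps4x, Rpl38, Rpl34, Rpsa and Rpl9, beside 5.6% of all genes. At least 1.2-fold lower were 3 (5.77%), Rpl6, Rpl29 and Rpl28, beside 3.93%. With CBFA2T added, 28 of 52 lay above it, beside 52.9% of all genes, and 3 (Rpl23a, Rpl38 and Rpl19) were at least 1.2-fold higher, beside 5.93% of all genes. Rps19 alone was lower, beside 4.2%, with a median of 0.01 over the members and over all genes.

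**Figure D2:**
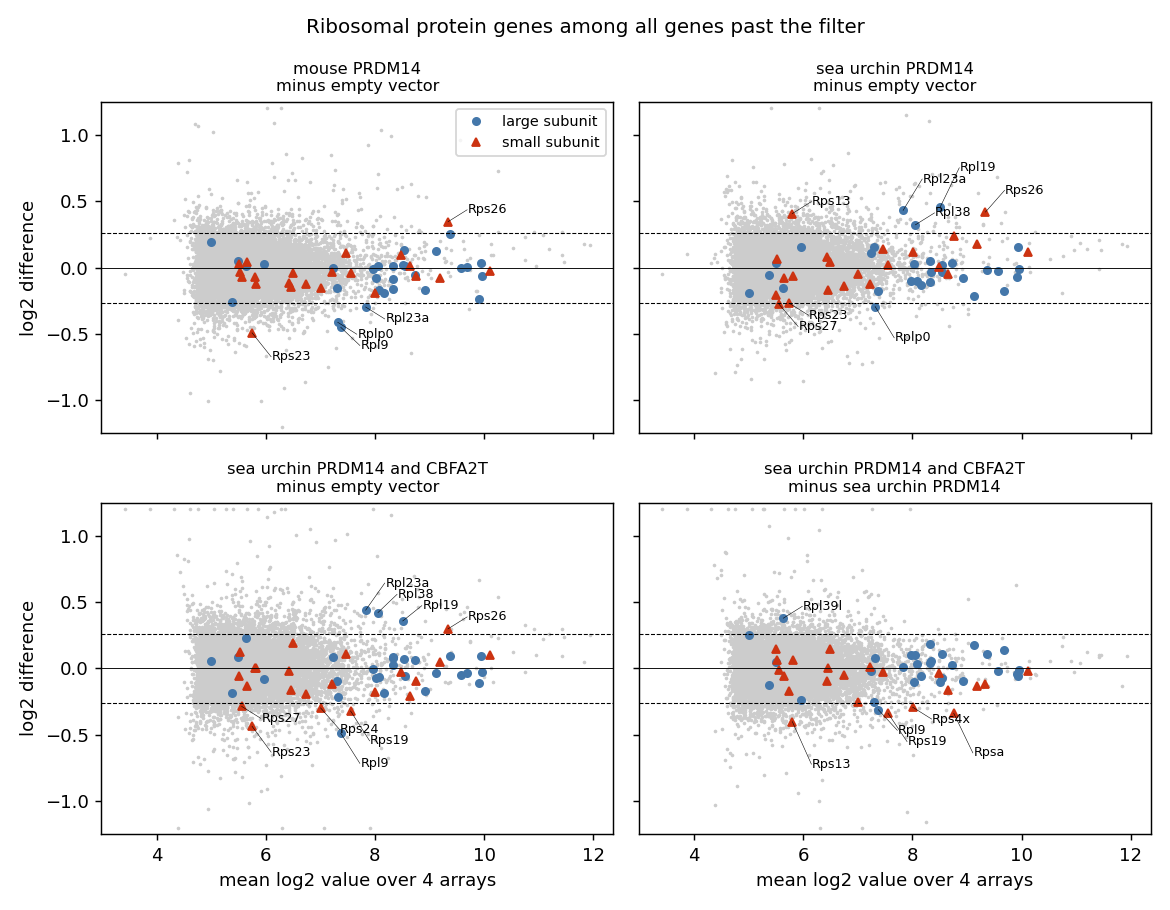
Log2 difference (vertical) against mean log2 value over the 4 arrays (horizontal) for all genes past the filter in grey and for ribosomal protein genes in colour, with dashed lines at 1.2-fold and grey points beyond the vertical limits drawn at the edge. The ribosomal protein genes lie within the grey cloud, between -0.49 and 0.46 in the panels shown, and those past 1.2-fold are named.

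The stalk of the large subunit, which recruits elongation factors, is built on RPLP0 and carries RPLP1 and RPLP2. Rplp0 had log2 values of 7.14 with mouse PRDM14, 7.25 with sea urchin PRDM14, 7.33 with CBFA2T added and 7.55 with the empty vector. The empty vector array was the highest of the 4, and the differences from it were -0.41 with mouse PRDM14, -0.29 with sea urchin PRDM14 and -0.22 with added CBFA2T. A second Rplp0 probe set did not share this order, with 6.62 with mouse PRDM14, 6.54 with sea urchin PRDM14, 6.74 with CBFA2T added and 6.62 with the empty vector. Rplp1 stood at 9.78 with mouse PRDM14, 9.95 with sea urchin PRDM14, 9.90 with CBFA2T added and 10.02 with the empty vector, which was again the highest. Its second probe set did not share that either, with log2 differences from the empty vector of -0.11 with mouse PRDM14, 0.07 with sea urchin PRDM14 and 0.02 with added CBFA2T. Rplp2 lay below the filter on every array, at 3.16 with mouse PRDM14, 3.16 with sea urchin PRDM14, 3.30 with CBFA2T added and 3.48 with the empty vector.

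Among the other large subunit genes, the 3 with the largest positive differences were Rpl23a, Rpl19 and Rpl38. RPL23A lines the mouth of the exit tunnel, where targeting factors dock, and its gene had log2 values of 7.39 with mouse PRDM14, 8.12 with sea urchin PRDM14, 8.12 with CBFA2T added and 7.69 with the empty vector. Both sea urchin arrays thus lay above the other 2, by 0.43 without and 0.44 with CBFA2T over the empty vector and by 0.73 without and 0.74 with CBFA2T over mouse PRDM14, whose own difference from the empty vector was -0.30. RPL19 takes part in a bridge between the subunits, and its gene, whose promoter tract is printed above, stood at 8.32 with mouse PRDM14, 8.76 with sea urchin PRDM14, 8.66 with CBFA2T added and 8.30 with the empty vector. A second, dimmer Rpl19 probe set, below the filter, had smaller differences from the empty vector, -0.02 with mouse PRDM14, 0.10 with sea urchin PRDM14 and 0.15 with added CBFA2T. RPL38, whose loss in mice alters the axial skeleton through translation of Hox mRNAs, came from a gene with values of 7.88 with mouse PRDM14, 8.19 with sea urchin PRDM14, 8.29 with CBFA2T added and 7.87 with the empty vector. For Rpl19 and Rpl38, too, the sea urchin arrays lay above the other 2, and mouse PRDM14 differed from the empty vector by only 0.02 and 0.01.

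Rpl9, which encodes a protein near the stalk base, showed another order. It stood at 7.20 with mouse PRDM14, 7.47 with sea urchin PRDM14, 7.16 with CBFA2T added and 7.65 with the empty vector, which was the highest of the 4. The differences from the empty vector were -0.45 with mouse PRDM14, -0.18 with sea urchin PRDM14 and -0.49 with added CBFA2T. A second Rpl9 probe set, just below the filter, pointed the other way with differences of 0.05 with mouse PRDM14, 0.08 with sea urchin PRDM14 and 0.24 with added CBFA2T. Rpl5 and Rpl11 encode the proteins that, with 5S ribosomal RNA, bind the p53 inhibitor MDM2 when ribosome assembly fails. Rpl5 had 5.24 with mouse PRDM14, 5.44 with sea urchin PRDM14, 5.31 with CBFA2T added and 5.50 with the empty vector, a spread of 0.26, while Rpl11 lay below the filter with values between 4.24 and 4.32.

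Rpl6, Rpl28 and Rpl29, which encode 3 further large subunit proteins, had their highest values with mouse PRDM14 and their lowest with sea urchin PRDM14. Rpl6 had 5.18 with mouse PRDM14, 4.79 with sea urchin PRDM14, 5.04 with CBFA2T added and 4.98 with the empty vector. Rpl28 had 9.54 with mouse PRDM14, 9.28 with sea urchin PRDM14, 9.39 with CBFA2T added and 9.29 with the empty vector. Rpl29 had 9.29 with mouse PRDM14, 8.94 with sea urchin PRDM14, 9.12 with CBFA2T added and 9.16 with the empty vector. None of these 3 reached 1.2-fold against the empty vector. A dimmer Rpl29 probe set was highest with CBFA2T added, at 6.79 beside 6.75 with mouse PRDM14, and lowest with sea urchin PRDM14, at 6.69. A dimmer set shared by Rpl28 and Gm10051 was highest with the empty vector, at 5.23, and lowest with CBFA2T added, at 5.12. Rpl32, also of the large subunit, had 8.63 with mouse PRDM14, 8.46 with sea urchin PRDM14, 8.57 with CBFA2T added and 8.50 with the empty vector. Rpl3, at the peptidyl transferase centre, had 8.17 with mouse PRDM14, 8.38 with sea urchin PRDM14, 8.42 with CBFA2T added and 8.33 with the empty vector.

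In the small subunit, Rps26 and Rps23 were the 2 members that stood at least 1.2-fold to one side of the empty vector on all 3 other arrays. RPS26 sits where the messenger RNA leaves the ribosome and is mutated in some patients with Diamond-Blackfan anaemia. Its gene had log2 values of 9.42 with mouse PRDM14, 9.49 with sea urchin PRDM14, 9.37 with CBFA2T added and 9.07 with the empty vector, with differences of 0.35 with mouse PRDM14, 0.42 with sea urchin PRDM14 and 0.30 with added CBFA2T. A second Rps26 probe set, far below the filter, lay between 2.64 and 2.68 and did not share this. Its differences were -0.03 with mouse PRDM14, -0.05 with sea urchin PRDM14 and -0.04 with added CBFA2T. In the set used for Rps26, the other 3 arrays lay within 0.12 of each other, and the empty vector array alone was low. RPS23 lies in the decoding centre, and its gene, at 5.55 with mouse PRDM14, 5.78 with sea urchin PRDM14, 5.61 with CBFA2T added and 6.05 with the empty vector, showed the reverse, with differences of -0.49 with mouse PRDM14, -0.27 with sea urchin PRDM14 and -0.44 with added CBFA2T. Both patterns rest on the 1 empty vector array. Of all genes, 0.67% were at least 1.2-fold above and 0.59% at least 1.2-fold below it on all 3, as 1 member each was. At any size of difference, 6 members lay above it on all 3 (25.3% of all genes) and 16 below it on all 3 (24.4%), and 41 of the 52 reached 1.2-fold against it on none (79.8%).

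The 4 small subunit genes lower with CBFA2T than with sea urchin PRDM14 alone, Rps13, Rpsa, Rps4x and Rps19, all had their highest value with sea urchin PRDM14 alone. Rps13, which encodes a protein at a bridge between the subunits, had 5.64 with mouse PRDM14, 5.72 with CBFA2T added, 6.12 with sea urchin PRDM14 and 5.71 with the empty vector, so 1 array of 4 stood apart. A set shared by Rps13, Gm15483 and Rps13-ps4, named after its values were seen, had another order. It had 5.77 with mouse PRDM14, 5.525 with CBFA2T added, 5.79 with sea urchin PRDM14 alone and 5.69 with the empty vector. Its difference between the 2 sea urchin arrays was -0.27, and the array with CBFA2T was the low one. Rpsa, first known as a laminin receptor and also a ribosomal protein, had 8.67 with mouse PRDM14, 8.64 with CBFA2T added, 8.98 with sea urchin PRDM14 alone and 8.74 with the empty vector. Its second probe set gave a like difference between the 2 sea urchin arrays, -0.32 beside -0.34.

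Rps4x, on the X chromosome, had 7.87 with mouse PRDM14, 7.89 with CBFA2T added, 8.18 with sea urchin PRDM14 alone and 8.07 with the empty vector. Rps19, the gene most often mutated in Diamond-Blackfan anaemia, had 7.60 with mouse PRDM14, 7.32 with CBFA2T added, 7.65 with sea urchin PRDM14 alone and 7.64 with the empty vector. The array with CBFA2T was the low one, the other 3 lying close together, and a dimmer Rps19 probe set had a smaller difference of -0.12 between the sea urchin arrays. Rps24, a further Diamond-Blackfan gene, had 6.97 with mouse PRDM14, 7.08 with sea urchin PRDM14, 6.83 with CBFA2T added and 7.13 with the empty vector. Its 3 probe sets gave -0.30, -0.18 and 0.21 for CBFA2T against the empty vector, so they did not share a direction.

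Rps27, a zinc finger protein of the small subunit, had 5.64 with mouse PRDM14, 5.44 with sea urchin PRDM14, 5.43 with CBFA2T added and 5.71 with the empty vector, and both sea urchin arrays lay below the other 2. A brighter set shared by Rps27 and Rps27rt, named after its values were seen, did not share this order. It had 8.49 with mouse PRDM14, 8.55 with sea urchin PRDM14, 8.45 with CBFA2T added and 8.54 with the empty vector. Rps6, whose protein is phosphorylated by S6 kinases downstream of mTOR, had 10.04 with mouse PRDM14, 10.19 with sea urchin PRDM14, 10.17 with CBFA2T added and 10.07 with the empty vector, a range of 0.14. Rpl4, Rpl15 and Rpl21, of the large subunit, stayed between 9.56 and 10.03 on every array, with differences from the empty vector between -0.17 and 0.16. Rpl22, Rps7 and Rps15, at the dim end of those that passed, stayed between 5.36 and 5.61 and within 0.21 of the empty vector.

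Paralogs that replace a canonical protein in some tissues were described beside their partners. Rpl39l, the testis form of the exit tunnel protein RPL39, had 5.62 with mouse PRDM14, 5.84 with CBFA2T added, 5.46 with sea urchin PRDM14 alone and 5.61 with the empty vector. The difference between the 2 sea urchin arrays was 0.38, while the partner Rpl39, below the filter, had -0.07. Rpl3l, the heart and skeletal muscle form of RPL3, differed by at most 0.16 from the empty vector, with 5.96 with mouse PRDM14, 6.10 with sea urchin PRDM14, 5.86 with CBFA2T added and 5.94 with the empty vector. Rps27l, a p53 target in human cells, was below the empty vector on all 3 other arrays, with 6.43 with mouse PRDM14, 6.40 with sea urchin PRDM14, 6.41 with CBFA2T added and 6.57 with the empty vector. Rps4l had 6.40 with mouse PRDM14, 6.49 with sea urchin PRDM14, 6.63 with CBFA2T added and 6.44 with the empty vector. Rpl10l, the testis form of RPL10, lay below the filter between 3.30 and 3.43. Of 2 paralogs whose symbols the rule does not take, Rpl7l1 had 5.46 with mouse PRDM14, 5.48 with sea urchin PRDM14, 5.46 with CBFA2T added and 5.26 with the empty vector, and Rpl22l1 had 5.94 with mouse PRDM14, 5.75 with sea urchin PRDM14, 5.77 with CBFA2T added and 5.87 with the empty vector.

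How far probe sets of 1 gene shared a difference was measured in the 14 genes with more than 1 distinct probe set past the filter, 33 probe sets in all. All probe sets of a gene had the same sign in 8 genes for mouse PRDM14, 8 for sea urchin PRDM14 and 6 for CBFA2T added, each against the empty vector, and in 9 for CBFA2T against sea urchin PRDM14 alone. The pooled standard deviation of the differences within a gene was 0.13, 0.11, 0.16 and 0.10 in those comparisons, and the standard deviation over the 52 members was 0.16, 0.18, 0.19 and 0.16. Differences between members were therefore only 1.2 to 1.7 times as wide as differences between probe sets of 1 gene on the same pair of arrays. This spread covers probes, not cultures, and is no replicate error. Several probe sets also had values identical on all 4 arrays to another of the same gene (10 of the 104, of Rps12, Rps19 and Rpl23a) and carry no separate measurement.

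**Figure D3:**
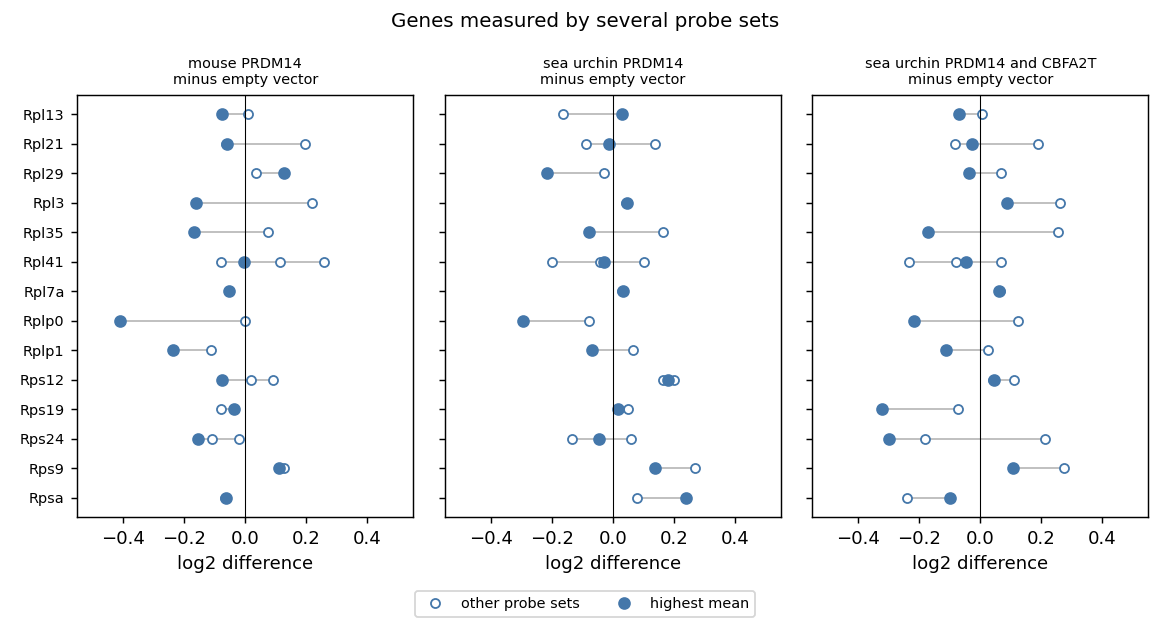
Log2 difference from the empty vector (horizontal) for every distinct probe set past the filter of the 14 genes that have several (vertical), with a filled point for the probe set used for the gene and open points for the others, joined by a line. The points of Rplp0 and of Rpl35 lie far apart in every panel, and those of Rps24 most with added CBFA2T. Those of Rpl3 lie far apart with mouse PRDM14 (0.22 and -0.16) but together with sea urchin PRDM14 alone (0.04 and 0.05). The points of Rps9 and Rps12 lie to the right of 0 with either sea urchin construct.

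The probe sets with several symbols, of which 1 follows the rule, were kept apart because the platform ties them to other genes as well. There were 57, of which 50 passed the filter. Against the empty vector, 6 of the 50 reached 1.2-fold upward and 1 downward with mouse PRDM14, 8 and 2 with sea urchin PRDM14, and 7 and 5 with added CBFA2T. Among all single-symbol genes past the filter these shares were 4.07% and 4.28%, 5.02% and 3.4%, and 6.26% and 4.45%. Some of the 6 upward with mouse PRDM14 also carry symbols of small nucleolar RNA genes. They were Snora3 with Rpl27a (0.32), Snora52 with Rplp2 (0.53), and Snord33 (0.33) and Snord34 (0.44) with Rpl13a. Other such sets past the filter did not reach 1.2-fold: Snord15b with Rps3 (0.06), Snord68 with Rpl13 (0.09) and Snord32a with Rpl13a (0.24). Below the filter, Snord14a with Rps13 had -0.31 and Snora70 with Rpl10 had -0.13. Which transcript these sets read was not tested, and they were named after their values were seen. One set shared by Gm10420, Gm5978 and Rps2 stood at 7.38 with mouse PRDM14, 6.73 with sea urchin PRDM14, 6.46 with CBFA2T added and 6.37 with the empty vector, a difference of 1.02 for mouse PRDM14, while a second Rps2 set with the same 3 symbols had 0.00. These 2 sets were chosen after their values were seen, as were the 3 shared by Rpl23a and predicted genes. The Rpl23a sets had differences of 0.46, 0.45 and 0.45 from the empty vector for CBFA2T added and of 0.39, 0.38 and 0.55 for sea urchin PRDM14 alone, on the side of the Rpl23a probe set above. With mouse PRDM14 they had -0.07, -0.03 and 0.12, beside -0.30 for that probe set, so none of the 3 reached 1.2-fold lower.

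Rpl19, Rpl23a and Rpl38 all lie on chromosome 11 in the RefSeq annotation of GRCm38.p6, as do Rpl26 and Rpl27 among the members past the filter. This chromosome was singled out with earlier results of these data known. The 5 had a median difference from the empty vector of -0.00 with mouse PRDM14, 0.32 with sea urchin PRDM14 and 0.36 with added CBFA2T, and 3 of 5 were at least 1.2-fold higher on each sea urchin array. Rpl26 had 7.19 with mouse PRDM14, 7.30 with sea urchin PRDM14, 7.28 with CBFA2T added and 7.19 with the empty vector. Rpl27 had 8.27 with mouse PRDM14, 8.25 with sea urchin PRDM14, 8.43 with CBFA2T added and 8.35 with the empty vector. In these probe sets both genes differed from the empty vector by at most 0.11. A brighter set shared by Rpl26 and Gm15772, with a mean of 8.31, differed more and was chosen after its values were seen. Its differences from the empty vector were -0.23 with mouse PRDM14, 0.34 with the sea urchin ortholog alone and 0.50 once CBFA2T was added. Which transcript that set reads was not tested. The 47 members of other chromosomes had medians of -0.04 with mouse PRDM14, -0.03 with sea urchin PRDM14 and -0.05 with added CBFA2T, with 1, 2 and 1 at least 1.2-fold higher on these arrays. Of all 1067 genes of chromosome 11 past the filter, 3.66% were at least 1.2-fold higher with mouse PRDM14, 12.9% on the sea urchin PRDM14 array and 17.4% on that with CBFA2T added, against 4.11%, 4.25% and 5.18% of the 10975 other genes. The higher share on the sea urchin arrays was thus also found among all genes of the chromosome that passed the filter.

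**Figure D4:**
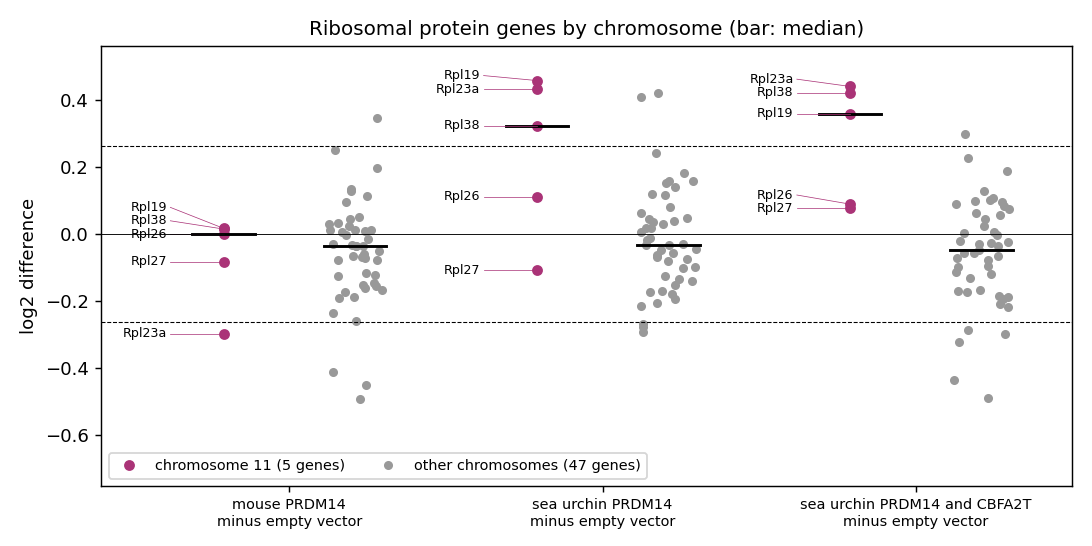
Log2 difference from the empty vector (vertical) for the 5 ribosomal protein genes of chromosome 11 (named) and the 47 of other chromosomes, for each of the 3 PRDM14 arrays, with bars at the medians and dashed lines at 1.2-fold. The bars of the 2 groups of genes lie close together with mouse PRDM14 and apart on both sea urchin arrays (0.32 against -0.03, and 0.36 against -0.05).

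Other genes of the ribosome and its making were read from 6 lists. Their counts stand beside the same shares of all genes, 4.07% higher and 4.28% lower with mouse PRDM14, 5.02% and 3.4% with sea urchin PRDM14, and 6.26% and 4.45% with added CBFA2T. Of the 37 ribosome assembly factors, 32 passed the filter, with medians of -0.01 with mouse PRDM14, 0.07 with sea urchin PRDM14 and 0.08 with added CBFA2T over the empty vector. At least 1.2-fold higher were 0 with mouse PRDM14, 3 with sea urchin PRDM14 and 2 with added CBFA2T, with Pes1 and Pno1, factors of the large and the small subunit, on both sea urchin arrays. Lower were 1, 0 and 0, the 1 being Utp4 with mouse PRDM14 (-0.40). Of 14 other TOP mRNAs, 11 passed, with 0 higher with mouse PRDM14, 3 with sea urchin PRDM14 and 3 with added CBFA2T, and 0 lower on each. The largest difference was in Npm1, which encodes the nucleolar chaperone nucleophosmin, at 8.46 with mouse PRDM14, 8.98 with sea urchin PRDM14, 9.06 with CBFA2T added and 8.36 with the empty vector. Of 71 mitochondrial ribosomal protein genes, 57 passed, with medians of -0.01 with mouse PRDM14, 0.03 with sea urchin PRDM14 and 0.03 with added CBFA2T. Higher were 1, 6 and 4 on these arrays and lower 0, 1 and 1, and the 1 higher with mouse PRDM14 was Mrpl52 (0.53).

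RNA polymerase I genes had 10 of 14 past the filter, with 1 higher with mouse PRDM14, 0 with sea urchin PRDM14, 2 with CBFA2T added and 0 lower on each. The polymerase I initiation factor gene Rrn3 had 7.23 with mouse PRDM14, 7.14 with sea urchin PRDM14, 7.54 with CBFA2T added and 7.03 with the empty vector. Regulators of ribosomal protein expression had 10 of 11 past it, with 0 higher with mouse PRDM14, 1 with sea urchin PRDM14, 2 with CBFA2T added and 0 lower on each. The higher genes were Rptor, a subunit of mTOR complex 1, on both sea urchin arrays, and Larp1, the TOP mRNA-binding protein, with CBFA2T added. None of the 6 elongation factor genes reached 1.2-fold against the empty vector. The 6 lists hold 126 genes past the filter, 17 of them on chromosome 11. Higher than the empty vector by 1.2-fold were 7 of these 17 and 6 of the other 109 with sea urchin PRDM14, 7 of 17 and 6 of 109 with CBFA2T added, and 0 of 17 and 2 of 109 with mouse PRDM14. The 7 included Npm1, Pes1, Pno1, Rptor, Cct4 and Mrpl45 on both sea urchin arrays, of which Mrpl45 was chosen after its values were seen.

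Of 3 genes listed for p53 and its ribosomal protein sensor, 2 passed the filter. Mdm2, the p53 inhibitor that these proteins bind, had 6.40 with mouse PRDM14, 6.41 with sea urchin PRDM14, 6.78 with CBFA2T added and 6.40 with the empty vector. Cdkn1a, the p53 target that encodes p21, had 7.36 with mouse PRDM14, 7.17 with sea urchin PRDM14, 6.83 with CBFA2T added and 7.22 with the empty vector. The array with CBFA2T held the highest Mdm2 and the lowest Cdkn1a value, by 0.38 and -0.39 against the empty vector. Fau, which encodes the small subunit protein RPS30 fused to a ubiquitin-like domain, had 7.91 with mouse PRDM14, 7.86 with sea urchin PRDM14, 7.78 with CBFA2T added and 7.91 with the empty vector.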

How the data were processed

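The authors deposited log2 expression values made with RMA, per the submitters' processing notes. This method subtracts background, quantile-normalizes the arrays and combines the probes of a set, so a shift shared by most genes does not show. Its version, its genome build and the arrays it was run on together were not given in the sources used here. Probe sets were named from the platform annotation (23521 with 1 symbol, 1814 with several, 16010 with none), and chromosomes came from RefSeq GRCm38.p6. Differences, counts and medians were computed with Python 3.11.15, numpy 2.4.6 and pandas 2.3.3, figures with matplotlib 3.10.9 and cyclic loess with limma 3.58.1 in R 4.3.3. The summary was tested on simulated data with 200 changed genes. The members, lists and thresholds were chosen with earlier results of these data known. Named genes were those of the stalk, Rpsa, Rpl5, Rpl11, Rps6, paralogs, the 5 largest differences each way in each of the first 4 comparisons, and the 5 highest and 5 lowest means. From the other lists, names were drawn from genes past 1.5-fold or else the 2 largest differences, and not all are printed. Alternatives changed the filter, normalization, choice of probe set, membership, chromosomes and threshold. With 1 array per group, precision is limited by the number of arrays.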

Additional observations from a re-analysis of the deposited data

How the results depend on the processing

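The 6 median differences of the ribosomal protein genes and the 6 counts past 1.2-fold in either direction were recomputed under 10 alternatives, 1 of them chosen after seeing the data. Medians lay near 0 throughout: 47 of 54 kept their sign and 7 turned it, and 40 of 60 counts stayed within 1.5 times. Only genes with a mean of at least 9 turned the median to 0.0007 for mouse PRDM14 and 0.0094 for CBFA2T added, both against the empty vector, and to -0.0016 for CBFA2T added against mouse PRDM14. With sea urchin PRDM14 over the empty vector it turned to 0.0122 with the mean of all probe sets and to 0.0065 with distinct probe sets as units, the added alternative. For CBFA2T added against mouse PRDM14 it turned to -0.0017, both with probe sets of several symbols and without chromosomes 11 and 16. Counts of 5 for mouse PRDM14, 8 for sea urchin PRDM14 and 9 for CBFA2T added against the empty vector became 1, 1 and 1 at a mean of at least 9 and 0, 0 and 0 at 1.5-fold. The first became 8 with no filter and 2 with the mean of all probe sets, the second 5 without chromosomes 11 and 16, and the last 4 with the mean of all probe sets. The count of 6 for CBFA2T added against sea urchin PRDM14 became 0 at a mean of at least 9, 10 with probe sets of several symbols and 0 at 1.5-fold. Against mouse PRDM14, the count of 11 for sea urchin PRDM14 became 2 at a mean of at least 9 and 1 at 1.5-fold. That of 4 for CBFA2T added became 0 at that mean, 2 with the mean of all probe sets, 9 with several symbols, 1 without chromosomes 11 and 16 and 1 at 1.5-fold. Fewer genes are tested at a mean of at least 9, and 1.5-fold is a wider difference. Without the 2 chromosomes, sea urchin PRDM14 had 2 higher and 3 lower than the empty vector in place of 5 and 3. CBFA2T added against mouse PRDM14 then had 0 higher and 1 lower in place of 3 and 1. In both, the genes that dropped out were Rpl19, Rpl23a and Rpl38 of chromosome 11. For the other alternatives the cause was not tested. Some splits between higher and lower moved too. With several symbols, mouse PRDM14 had 4 higher and 3 lower than the empty vector in place of 1 and 4, sea urchin PRDM14 had 8 and 2 in place of 5 and 3, and CBFA2T added had 4 and 5 against mouse PRDM14 in place of 3 and 1. With no filter, which lets in the 12 dim members, sea urchin PRDM14 had 5 and 7 against the empty vector, and CBFA2T added against sea urchin PRDM14 had 4 and 5 in place of 1 and 5.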
